A study of Homo sapiens with 2 samples.

Results

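The early NF-kB response genes examined were 6: IER3, NFKBIA, TNFAIP3, IL8, CXCL1 and IL6. For each, every PRMT5 peak within 10 kb of the gene's span on hg19 was taken. This gave 3 of the 2840 peaks in the deposited list. The genes were chosen by their known role together with earlier results of this peak list, in which a peak near IER3 was the strongest, so the counts, positions and scores below are descriptions and carry no test. The cells, MDA-MB-231, are a long-established breast cancer line of human origin and were kept in serum-containing medium without treatment. The series has 2 samples from these cells, both without a genetic change or an added agent. One is crosslinked chromatin immunoprecipitated with an antibody to PRMT5, and the other is input DNA with no antibody, which was not analysed here. Each group has 1 library, so no value has a spread between cultures, and the depth is unknown because the list holds no read counts.

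NF-kB is a family of transcription factors, with RELA as its best studied member, that is held in the cytoplasm by inhibitor proteins and enters the nucleus after signals such as tumour necrosis factor. There it binds short kappa-B sites in promoters and enhancers and switches on cytokines, chemokines, survival genes and its own inhibitors. MDA-MB-231 cells are known for active NF-kB signalling and for secreting interleukin-6 and interleukin-8. PRMT5, working with its partner WDR77, places symmetric dimethyl marks on arginines of histones and other proteins, and RELA has been reported among its substrates. Neither NF-kB binding nor RNA was measured in the data described here.

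The sequence just upstream of these genes is shown first, because it is where NF-kB is known to act. No PRMT5 peak touched the 250 bases before any of the 6 hg19 starts. The share over all gene starts was not computed, so nothing is read from this count. RefSeq promoter sequences (GRCh38.p14) matched 5 of the 6 genes, with IL8 listed under its current symbol CXCL8. IER3 was not matched. Each line gives 60 bases upstream of the start, written 5′ to 3′ on the gene's strand, and capitals mark matches to GGNNTTTCC on either strand.
NFKBIA: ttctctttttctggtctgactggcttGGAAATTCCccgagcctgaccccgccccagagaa
TNFAIP3: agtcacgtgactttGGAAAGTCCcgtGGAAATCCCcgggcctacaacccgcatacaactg
IL8: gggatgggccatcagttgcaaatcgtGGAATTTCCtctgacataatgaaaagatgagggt
CXCL1: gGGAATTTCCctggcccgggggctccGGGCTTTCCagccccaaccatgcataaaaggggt
IL6: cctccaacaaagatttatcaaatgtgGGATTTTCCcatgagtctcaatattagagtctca
These stretches lie on GRCh38.p14 at chr14:35404797-35404856 (minus strand), chr6:137867178-137867237, chr4:73740452-73740511, chr4:73869314-73869373 and chr7:22727102-22727161 (plus strand), positions that cannot be set beside the hg19 coordinates of the peaks.

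The promoters held kappa-B-like letters close to the start. The nearest match to GGNNTTTCC began 81 bases before the start of NFKBIA, 55 before TNFAIP3, 91 before IL8, 53 before CXCL1 and 72 before IL6. In TNFAIP3 and CXCL1 the stretch held 2 matches each. All 5 sequences matched, against 6.26% of 35116 RefSeq windows of the same length, from 250 bases before to 50 after a start. This form of the motif was chosen after the sequences were seen, and the genes were chosen partly by their known role. Nothing is therefore read from the 5 matches against that share. The standard 10-base kappa-B consensus, searched on both strands, overlaps GGNNTTTCC. It was found in 4 of the 5 sequences (NFKBIA, TNFAIP3, CXCL1 and IL6) and in 11.3% of all windows. A match is a description of the letters and does not show that a factor binds there.

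PRMT5 peaks were called near 2 of the 6 genes, IER3 and NFKBIA, and for both genes the peaks lay at or beyond the 3′ end. As background, 1.57% of 130707 windows of 23.2 kb, the median length of the 6 genes' spans with 10 kb on either side, held a peak when tiled along hg19 chromosomes 1 to 22 and X. Those windows count unassembled sequence and regions without genes, and the peaks were already used in proposing the genes, so nothing is read from the count of 2 against that share. All 3 peaks extended past the end of IER3 or NFKBIA, and 0 of the 3 lay upstream of any of the 6 genes within 10 kb; their place relative to other genes on hg19 was not determined. No peak touched the window from 250 bases before to 50 after the start of any of the 6 genes. The share of all gene starts with a peak in such a window was not computed, and only 1.57% of the far longer 23.2 kb windows held a peak. Nothing is therefore read from this absence.

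IER3 encodes a short-lived, stress-inducible protein that affects cell survival and NF-kB signalling. The gene spans 1356 bp on the minus strand of chromosome 6, from 30710976 to 30712331. Its peak lay at 30709417 to 30711132, with a score of 201, where the score is the authors' −log10 of the caller's q-value. Read along the gene, the peak began 1199 bp after the start and ended 2914 bp after it. It covered the last 157 bp of IER3, which is 11.6% of the gene and 9.15% of the peak, and reached 1559 bp past the gene end. The centre of the peak lay 701.5 bp beyond the end. The greater part of the strongest PRMT5 peak was thus outside IER3 on its downstream side.

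The IER3 peak was the first of 2840 by score and, at 1716 bp, the 12th by width. The next score in the list was 197, and the next on chromosome 6, which carried 182 peaks, was 51.5. The median score on chromosome 6 was 7.41. Among the other 53 nuclear peaks wider than 1 kb, the scores ran from 6.09 to 197 with a median of 33.8. IER3 therefore headed the list by a small margin over the second peak and by a wide one over the rest of its own chromosome. These are values of 1 library, and score and width come from the same reads.

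**Figure D1:**
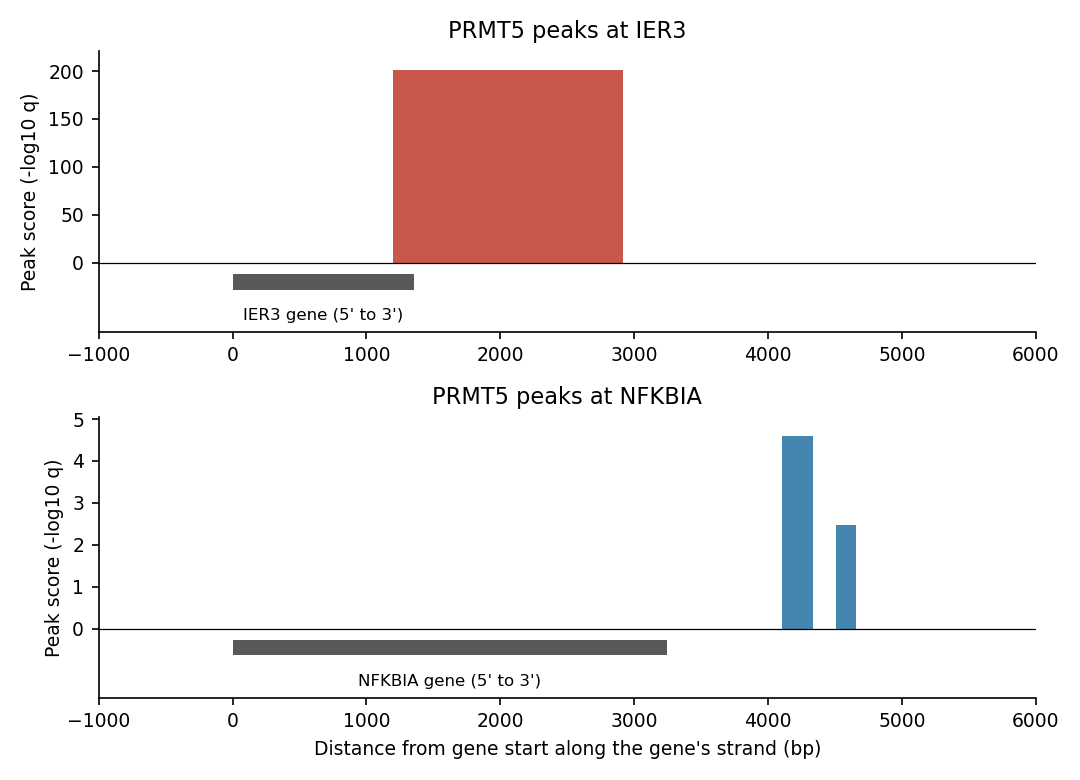
PRMT5 peaks at IER3 (top) and NFKBIA (bottom), with distance from the gene start along the gene's strand in bp on the horizontal axis and the authors' score (read as −log10 q) on the vertical axis. Coloured blocks are peaks drawn to their width, grey bars are the genes, and the vertical axes differ in scale: the IER3 peak has a score of 201 and overlaps the last 157 bp of the gene, while both NFKBIA peaks lie beyond its end with scores of 4.60 and 2.47.

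The downstream side of IER3 holds other genes, so the peak cannot be assigned to IER3 by distance alone. In RefSeq the next protein-coding gene downstream is FLOT1, on the same strand, which encodes the membrane scaffold protein flotillin-1. The antisense transcript IER3-AS1 overlaps IER3. The upstream windows of FLOT1 and IER3-AS1 shared 225 bases, read on opposite strands, so both transcripts start outward from 1 stretch beyond the IER3 end. That stretch is shown because it lies on the side to which the peak extends. Positions of FLOT1 and IER3-AS1 on hg19 were not used here, and whether the peak covers their shared upstream sequence was not determined. The stretch is given on the FLOT1 strand, from 250 to 26 bases before the FLOT1 start (GRCh38.p14, chr6:30742713-30742937, minus strand), and capitals mark matches to GGGCGG, the GC box, on either strand.
FLOT1: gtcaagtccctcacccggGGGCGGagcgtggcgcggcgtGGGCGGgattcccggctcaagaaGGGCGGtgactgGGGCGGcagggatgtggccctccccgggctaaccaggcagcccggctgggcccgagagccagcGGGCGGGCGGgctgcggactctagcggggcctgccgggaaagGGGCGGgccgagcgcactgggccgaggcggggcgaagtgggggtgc
The shared stretch is rich in G and C, at 77.3%, and held 7 GC box matches, of which a pair overlap by 2 bases. Over the same 225 bases before the start, 39.5% of the 35116 RefSeq entries held at least 1 match and 0.749% held 7 or more. The limit of 7 is this stretch's own count, and no share was computed for entries equally rich in G and C. Nothing is therefore read from these shares. The FLOT1 window held 0 matches to GGNNTTTCC and 0 to the kappa-B consensus.

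IER3 also had more peaks in its wider surroundings than the other 5 genes. How many peaks equally long windows hold elsewhere was not computed, so this is a description of these genes only. Within 100 kb there were 6 further peaks, with scores from 4.74 to 28.7. The closest to the 10 kb limit, and outside it, lay 16.8 kb beyond the IER3 end at 30692862 to 30694154, with a score of 28.7 and a width of 1293 bp. It ranked 137th by score and 32nd by width. The next 2 lay upstream. One, 24.8 kb before the IER3 start at 30737117 to 30737298, scored 12.3, and the other, 25.1 kb before it at 30737471 to 30737744, scored 14.8. The other 3 were narrow, at 37.4 kb upstream (score 7.79) and at 47.6 and 67.4 kb downstream (scores 10.3 and 4.74). Within 1 Mb of IER3 there were 10 peaks in all. All of these scored lower than the IER3 peak by necessity, since it ranked first in the list. On the scale of the whole list, the scores of 28.7 and 14.8 were above the upper quartile of 12.4. Those of 12.3 and 10.3 lay between it and the median of 7.80, and those of 7.79 and 4.74 were below the median.

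NFKBIA encodes IkB-alpha, the inhibitor that binds NF-kB in the cytoplasm and is itself induced by NF-kB. The gene spans 3245 bp on the minus strand of chromosome 14, from 35870716 to 35873960. Its nearer peak lay at 35869624 to 35869857, from 859 to 1092 bp past the gene end, with a score of 4.60 and a width of 234 bp. The farther peak lay at 35869304 to 35869455, from 1261 to 1412 bp past the end, with a score of 2.47 and a width of 152 bp. A gap of 168 bp separated them. Measured from the gene start, the nearer peak began at 4103 bp and the farther one at 4505 bp. RefSeq lists the pseudogene RPLP0P3 as the next gene downstream and PSMA6, a proteasome subunit gene, as the next protein-coding one.

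Both NFKBIA peaks were weak members of the list. They ranked 2341st and 2769th of 2840 by score, so that 17.6% and 2.39% of peaks scored lower. The lowest score listed was 1.30. The 1313 peaks between 152 and 234 bp wide, the widths of this pair, had a median score of 7.03 with quartiles of 5.10 and 10.1, and both NFKBIA peaks lay below the lower quartile. Chromosome 14 carried 70 peaks with a median score of 7.36 and a highest score of 43.2. Within 1 Mb of NFKBIA there were 4 peaks, the highest with a score of 26.8.

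**Figure D2:**
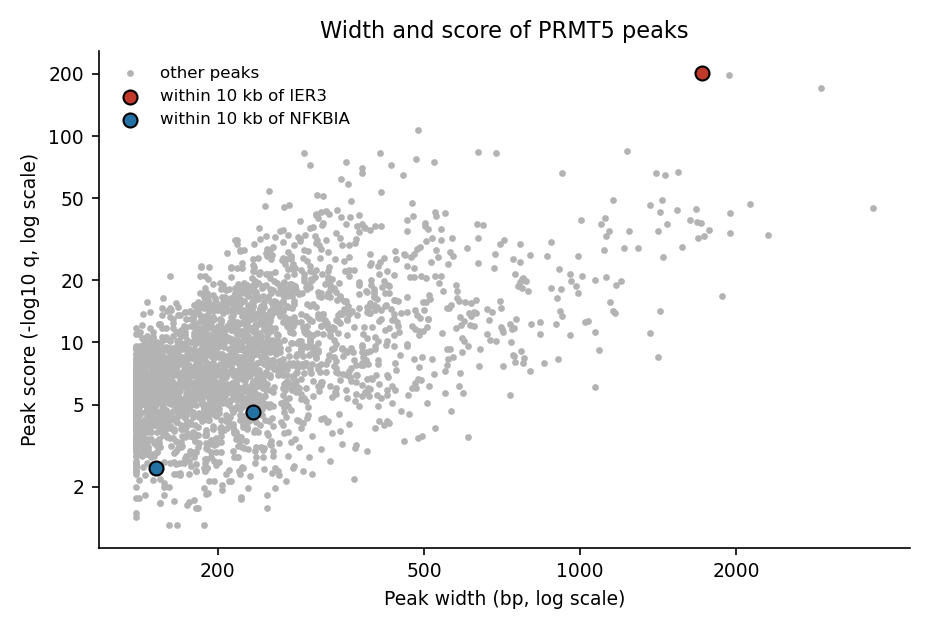
Width (bp, log scale) against score (read as −log10 q, log scale) for the 2839 peaks outside the mitochondrial sequence, each point 1 peak. The IER3 peak, in red, has the highest score, 201 at 1716 bp, and the NFKBIA peaks, in blue, lie in the lower part of the cloud at 4.60 and 2.47.

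TNFAIP3 encodes A20, a ubiquitin-editing enzyme that restrains NF-kB signalling, and like NFKBIA it is a feedback inhibitor. It is the longest of the 6 genes, at 16.1 kb on the plus strand of chromosome 6, from 138188325 to 138204451. No peak lay within 1 Mb of it. The nearest was 1256609 bp upstream, at 136931578 to 136931716, with a score of 9.31 and a width of 139 bp. For the 2 feedback inhibitors, the list thus held weak peaks past the end of NFKBIA and none within 10 kb of TNFAIP3. Only 1.57% of the 23.2 kb background windows held a peak, and there is no replicate. Nothing is therefore read from this difference.

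IL8 and CXCL1 encode chemokines that attract neutrophils, and both lie in the chemokine cluster of chromosome 4. IL8 spans 74606223 to 74609433 and CXCL1 spans 74735109 to 74737019, both on the plus strand and 125.7 kb apart. There were 0 peaks in or between them. The nearest peak to either gene was the same one, at 74527359 to 74527604, with a score of 14.9 and a width of 246 bp. It lay 78.6 kb upstream of IL8 and 207.5 kb upstream of CXCL1. Chromosome 4 carried 144 peaks, and 4 of them lay within 1 Mb of each gene.

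IL6 encodes interleukin-6, a cytokine that signals through STAT3. It spans 22766766 to 22771621 on the plus strand of chromosome 7. The nearest peak lay 127.0 kb past the gene end, at 22898665 to 22898843, with a score of 4.34 and a width of 179 bp. Of the 147 peaks on chromosome 7, 4 lay within 1 Mb of IL6, and the highest of these scored 12.5. The 3 secreted factors, IL8, CXCL1 and IL6, thus had no listed peak within 10 kb.

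**Figure D3:**
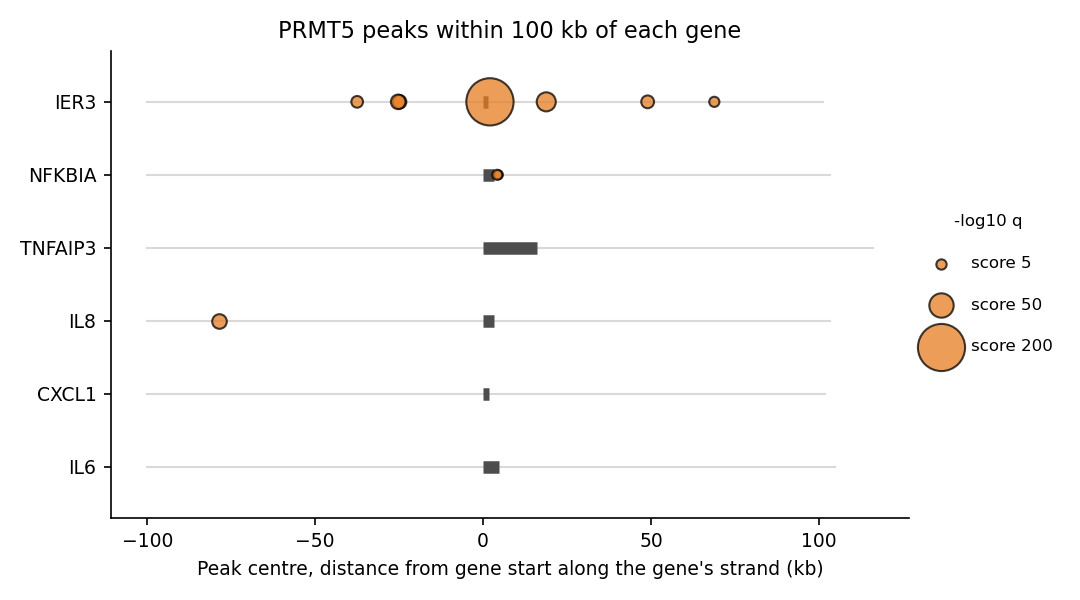
PRMT5 peaks within 100 kb of each of the 6 genes, placed by the distance of the peak centre from the gene start along the gene's strand in kb. Circle area rises with the score (read as −log10 q) and grey bars are genes: IER3 has 7 peaks, NFKBIA 2, IL8 1, and TNFAIP3, CXCL1 and IL6 have none. The share of equally long windows that hold a peak was not computed.

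A gene without a listed peak cannot be read as free of PRMT5, since the depth is unknown and only regions past the caller's threshold are listed. Nor does a listed peak alone show specific binding, because the input was not analysed.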

How the data were processed

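PRMT5 ChIP-seq of MDA-MB-231 was analysed from 1 peak list. Per the submitters' processing notes, CASAVA 1.4, Bowtie2, MACS2 and hg19 were used; roles, settings and the control are not given in the sources used here. The authors deposited, per peak, a position and a score read as the −log10 of a q-value, since the lowest is just above 1.30, the −log10 of 0.05.

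Gene spans on hg19 were taken as given for each gene. Their lengths differed from RefSeq (GRCh38.p14) by at most 4.93%, and RefSeq served only for names, neighbours and promoter sequences. Starts were counted from 1, and an overlap of 1 base counted. Distances were checked on 1000 simulated peaks, of which 1000 were placed correctly. The genes and lists were chosen with earlier results of these data known. Every gene was named with all peaks within 10 kb, or else its nearest peak. Other NF-kB pathway genes were not analysed here, because no hg19 annotation was used. The alternatives were other distances (5, 50 and 100 kb), the highest-scoring 50% and 25% of peaks, merging within 1 kb, and peak centres. Python 3.11.15, numpy 2.4.6, pandas 2.3.3, matplotlib 3.10.9 and GenomeInfoDb 1.38.1 (chromosome lengths) were used.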

Additional observations from a re-analysis of the deposited data

How the results depend on the processing

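The 3 peaks near 2 genes were also found within 5 kb and with distances taken to peak centres. The number of peaks was 8 within 50 kb and 10 within 100 kb, through the peaks around IER3 and the one upstream of IL8, and the number of genes was 2 and 3. For 50 and 100 kb the share of equally long windows that hold a peak was not computed, so nothing is read from these counts. In the highest-scoring 50% of the list, and in the highest-scoring 25%, 1 peak near 1 gene was left, that of IER3, because the NFKBIA peaks scored below these limits. Merging peaks within 1 kb joined the NFKBIA pair and left 2 peaks. Taken at the peak centre in place of the far edge, the distance past the gene end was 701.5 bp for IER3 (1559 bp at the edge) and 975.5 and 1336.5 bp for NFKBIA (1092 and 1412 bp). All of these lie downstream of the gene end. What depth limits cannot be said, as the list holds no reads. No paired analysis was possible because there was 1 library of each kind.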
